A study of Mus musculus with 8 samples.

Results

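FAT10, encoded by Ubd, and ISG15 are small ubiquitin-like modifiers whose genes respond to interferon, and the 7 genes of their modifier, conjugation and deconjugation machinery that are listed among the 20057 genes of the expression table were described in tumor endothelial cells. The members were chosen by gene symbol, from a list proposed with the expression difference between these same libraries in view. They comprise the modifiers Ubd and Isg15, the activating enzymes Uba6 and Uba7, the conjugating enzyme Ube2l6, the ligase Herc6 and the protease Usp18. All 7 were found, and all 7 passed the limit for expression, a larger group mean above 10 normalized reads, which 12969 genes passed. Because the same contrast entered the choice, the difference of each member between treatments is given as a description without a test.

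RNA was sequenced from CD45-CD31+ cells sorted from B16-F10 melanomas in male C57BL/6 mice, with 1 library per tumor. CD45 marks leukocytes and CD31 marks endothelium. Mice 8 weeks old were inoculated subcutaneously with 250000 tumor cells and were injected beside the tumor on days 13 and 16 with 30 µg of antibody, either the agonistic CD40 mAb FGK4.5 or the rat IgG2a isotype control 2A3. The 4 agonistic CD40 mAb libraries are named after the mice 5N, 6L, 6R and 10N, and the 4 isotype control libraries 5L, 7N, 8N and 9L. All mice were otherwise alike by the labels, all carried the tumor, and a mouse without antibody was not among the libraries. About 100000 sorted cells gave the RNA, of which 10 ng entered each library. Rounded to 3 digits, 12500000 to 64900000 reads fell on genes in the agonistic CD40 mAb libraries and 2970000 to 35600000 in the isotype control libraries. A single sequenced read was therefore worth 0.118 normalized reads in the deepest library, 5N, and 2.44 in the shallowest, 5L.

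Ubiquitin-like modifiers are joined to lysines of other proteins by a relay of an activating enzyme (E1), a conjugating enzyme (E2) and a ligase (E3). FAT10 holds a pair of ubiquitin-like domains, is activated by UBA6, an E1 that also serves ubiquitin, and is passed to the E2 UBE2Z, and its attachment sends the substrate to the proteasome. NUB1 binds FAT10 and speeds its degradation. FAT10 is known to be induced by IFNγ and TNF together. ISG15, a classic product of type I interferon signaling, is activated by UBA7, passed to UBE2L6 and attached in mice mainly by HERC6. USP18 removes ISG15 from its substrates and, independently of that, binds the interferon receptor chain IFNAR2 and dampens the signal.

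The bases in front of the start sites of both modifier genes are shown because both are the modifiers that the enzymes serve, and Ubd had the highest and Isg15 one of the lowest ratios of the 7 genes. They are taken from RefSeq on GRCm38.p6, where 5 of the 7 members were matched, namely Ubd, Isg15, Uba7, Ube2l6 and Herc6. Each run holds the 250 bases before the start site, 5′ to 3′ in the direction of transcription, at chr17:37193642-37193891 on the plus strand for Ubd and at chr4:156200819-156201068 on the minus strand for Isg15. Capitals mark the match to a general NF-κB consensus in Ubd and the overlapping matches to the core of the interferon-stimulated response element (ISRE) in Isg15.
Ubd: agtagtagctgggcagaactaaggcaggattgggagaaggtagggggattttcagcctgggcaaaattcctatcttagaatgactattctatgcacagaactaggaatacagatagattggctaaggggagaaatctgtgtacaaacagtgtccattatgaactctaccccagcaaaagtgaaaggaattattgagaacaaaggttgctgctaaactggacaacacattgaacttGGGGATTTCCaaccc
Isg15: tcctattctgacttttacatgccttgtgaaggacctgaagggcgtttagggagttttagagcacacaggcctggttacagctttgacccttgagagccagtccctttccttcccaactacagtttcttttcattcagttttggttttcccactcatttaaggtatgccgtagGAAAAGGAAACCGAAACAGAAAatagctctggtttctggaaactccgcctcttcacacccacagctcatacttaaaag

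Windows of 300 bases, from 250 before to 50 after the start site, were searched on both strands in all 32851 RefSeq promoters. The ISRE core was written as GAAA, any pair of bases and GAAA. Isg15 held 3 copies of it that overlap each other, between bases -78 and -57 from the start site, and none of the other 4 matched members held one, where 3.44% of all promoters did. The IFNγ-activated site, written as TTC and GAA with any 3 bases between them, was found in none of the 5 and in 8.30% of all promoters. The strict NF-κB motif, written as GGGA, any base and TTTCC, was likewise found in none of the 5 and in 0.411% of all promoters. The general NF-κB consensus, which was chosen after the Ubd sequence had been read, matched Ubd once, as GGGGATTTCC from base -15 to base -6, and matched 8.46% of all promoters. A match describes letters and not binding, and the absence of one says only that these letters are not in the window.

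Ubd (mm10, chr17:37193892-37196095, plus strand) was the member with the highest ratio between the treatments. Its level was 243 normalized reads in 5N, 247 in 6L, 640 in 6R and 517 in 10N with agonistic CD40 mAb. It was 2.44 in 5L, 11.9 in 7N, 36.8 in 8N and 19.1 in 9L with isotype control. The groups lay far apart: the lowest library with agonistic CD40 mAb stood several-fold above the highest with isotype control. The means were 412 ± 199 and 17.5 ± 14.5 normalized reads (SD, n = 4 each), a ratio of 23.5 and a difference of 4.80 on the log2(value + 1) scale (standard error 0.63). The spread within each group was wide, with 6R and 10N high among the agonistic CD40 mAb libraries and 8N high among the isotype control libraries. Depth differed strongly for this gene. The agonistic CD40 mAb values rest on 4673 reads, and the isotype control values on 121, of which 5L supplied 1, 7N 5, 8N 27 and 9L 88. The ratio was 37.0 without 8N, 18.2 without 5L and 14.8 without both 5L and 7N, the isotype control libraries of lowest depth. No 50-base window of its transcript occurs in a transcript of another gene.

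Ubd is known to be expressed by mature dendritic cells and B cells as well as by cytokine-treated endothelium and epithelium, so markers of cells outside the sort gate were read beside it. In bulk RNA, fewer cells of a type and less RNA per cell cannot be told apart. All 10 endothelial markers passed the limit for expression, and their summed level was 40182 to 59116 normalized reads with agonistic CD40 mAb and 35240 to 49414 with isotype control. None of 4 B cell markers passed, with sums of 1.53 to 7.82 and 0 to 7.58. None of 8 T and NK cell markers passed either, with sums of 4.15 to 13.2 and 0 to 7.14. Among them Cd3e (8 reads), Cd8a (14), Nkg7 (1), Gzmb (6) and Prf1 (42) had reads with agonistic CD40 mAb and none with isotype control. The isotype control libraries together held fewer reads. In the opposite direction, Cd4 had 8 reads in the agonistic CD40 mAb group and 17 in the isotype control group, a ratio of 0.289. In the same order, Cd3g had 0 and 1 reads, and Klrb1c had 39 and 13 at a ratio of 1.02. Of 10 dendritic cell markers, Zbtb46, Clec9a and Fscn1 passed and Siglech was at 0 in all 8 libraries. The sums were 2336 to 3321 and 2121 to 3105, mostly from Fscn1, an actin-bundling gene that other cells also express (2011 to 2917 and 1772 to 2818). Zbtb46 was at 183 to 270 and 166 to 249.6, and Clec9a at 79.6 to 128 and 44.0 to 112, a ratio of 1.30. Flt3, Xcr1, Itgax, Ccr7, Cd83 and Ccl22 were at most 6.62 with agonistic CD40 mAb and at most 16.7 with isotype control. All 8 macrophage markers passed, with sums of 322 to 534 and 219 to 501. Their ratios ran from 0.925 for Csf1r to 2.03 for Itgam, which had 210 and 66 reads. The median log2 difference was 0.38, with 6 of 8 above 0, beside 51.3% of all genes tested. Of 6 leukocyte markers 4 passed, with sums of 553 to 889 and 320 to 692, mostly from Srgn (471 to 733 and 247 to 545). Among those that passed, the ratio was 1.43 for Srgn, 1.30 for Cd53, 1.05 for Coro1a and 0.965 for Laptm5. Ptprc, which encodes CD45, did not pass. It was between 1.51 and 21.1 with agonistic CD40 mAb and between 0 and 4.98 with isotype control, a ratio of 3.96 on 108 and 26 reads. RNA with markers of other tumor cells was present in both groups, and all of these markers passed. The 6 melanoma markers summed to 34553 to 58341 and 37047 to 89692, the 6 fibroblast markers to 120637 to 249098 and 88497 to 216733, and the 5 mural cell markers to 14256 to 24302 and 10875 to 34359. None of the markers that passed this limit was past the threshold, which asked for a 1.5-fold ratio of means in either direction and an unadjusted p of at most 0.05, in limma, edgeR or DESeq2, and Srgn, a leukocyte marker, was alone at such a p in each. The part of other cell types in the level of Ubd, or of any other member, was not tested.

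Uba6 (mm10, chr5:86109287-86172803, minus strand) encodes the activating enzyme that FAT10 shares with ubiquitin. Its level was 411 normalized reads in 5N, 321 in 6L, 299.6 in 6R and 288 in 10N with agonistic CD40 mAb. With isotype control it was 252 in 5L, 388 in 7N, 293 in 8N and 328 in 9L. The groups overlapped almost completely, at means of 329.9 ± 55.5 and 315 ± 57.6 (SD, n = 4 each), and the log2 difference was 0.07 (standard error 0.17). Its sign depended on the libraries, as the log2 difference was -0.04 without 5N.

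**Figure D1:**
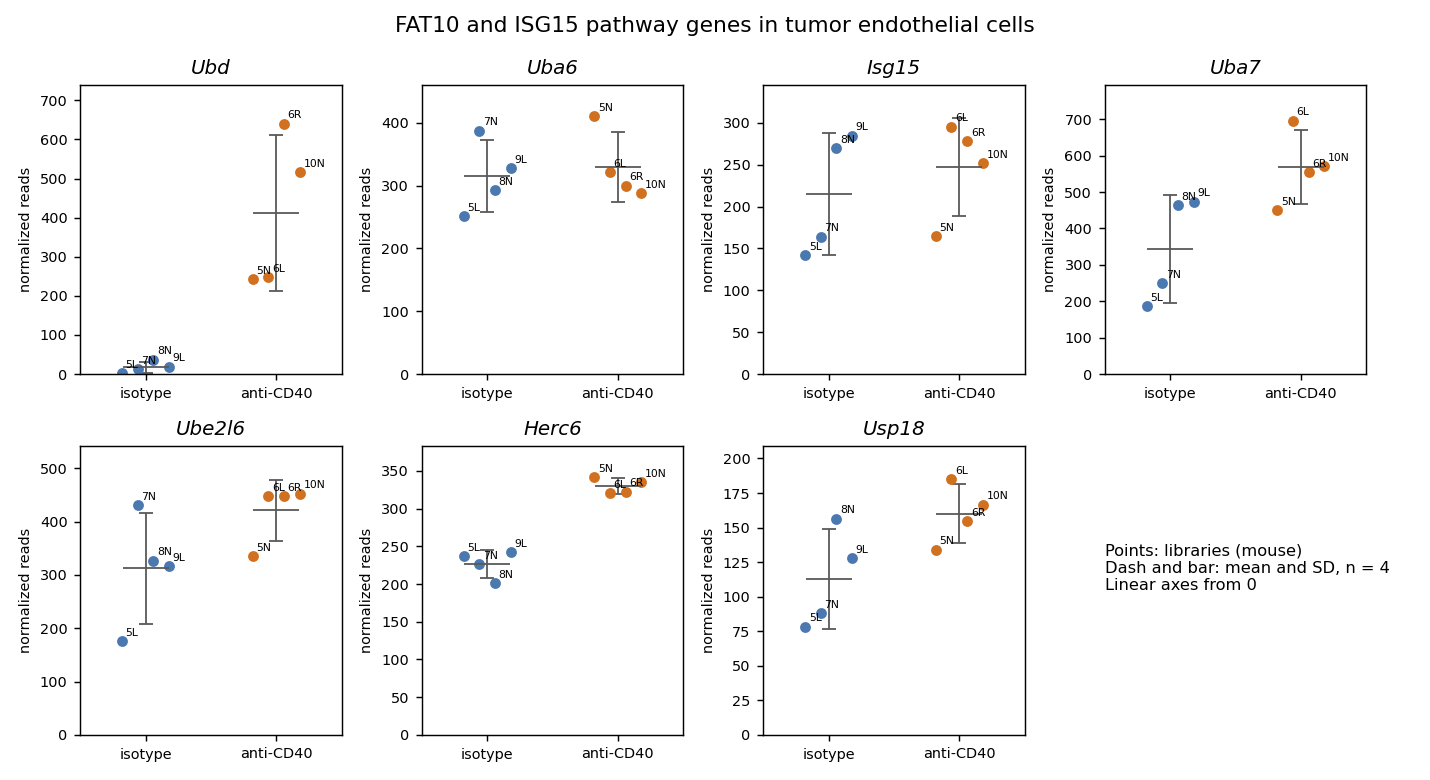
Normalized reads of the 7 genes in each library, with isotype control in blue and agonistic CD40 mAb in orange. Points are libraries labelled by mouse, the dash and bar are the mean and SD of 4 libraries, and each linear axis starts at 0. The groups are apart for Ubd and Herc6 and overlap for the other 5 genes.

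Isg15 (mm10, chr4:156199424-156200818, minus strand) encodes the interferon-induced modifier of the relay through UBA7. In normalized reads it was 164 in 5N, 295 in 6L, 278 in 6R and 252 in 10N with agonistic CD40 mAb. With isotype control it was 142 in 5L, 164 in 7N, 269.5 in 8N and 285 in 9L. The groups overlapped widely, since the isotype control libraries 8N and 9L stood among the highest agonistic CD40 mAb libraries and 5N stood beside 7N. The means were 247 ± 58.2 and 215 ± 72.5 (SD, n = 4 each), a ratio of 1.15 and a log2 difference of 0.23 (standard error 0.26). The log2 difference was 0.05 without 5L, 0.42 without 5N and -0.20 without both 5L and 7N. The transcript shares 3.96% of its 50-base windows with transcripts of other genes.

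Uba7 (mm10, chr9:107975505-107984060, plus strand) encodes the activating enzyme of ISG15. It was 449 normalized reads in 5N, 696 in 6L, 555 in 6R and 571 in 10N with agonistic CD40 mAb. With isotype control it was 186 in 5L, 249.8 in 7N, 464 in 8N and 473 in 9L. The 2 higher isotype control libraries lay above 5N, so that the groups overlapped, while 6L, 6R and 10N stood above all isotype control libraries. The means were 568 ± 101 and 343 ± 147 (SD, n = 4 each), a ratio of 1.65 and a log2 difference of 0.82 (standard error 0.29). The ratio was 1.44 without 5L, 1.89 without 9L and 1.21 without both 5L and 7N. Its exons share 3.48% of their bases with Gm20661 on the same strand, and 2.52% of its 50-base windows occur in transcripts of other genes.

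Ube2l6 (mm10, chr2:84798828-84810335, plus strand) encodes the conjugating enzyme of ISG15. It was 335 normalized reads in 5N, 448 in 6L, 448 in 6R and 452 in 10N with agonistic CD40 mAb. With isotype control it was 176 in 5L, 431 in 7N, 327 in 8N and 316 in 9L. Library 5N stood with 8N and 9L, and 7N stood just under the other agonistic CD40 mAb libraries. The means were 421 ± 57.1 and 312 ± 105 (SD, n = 4 each), a ratio of 1.35 and a log2 difference of 0.49 (standard error 0.24). The log2 difference was 0.24 without 5L and 0.67 without 7N.

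Herc6 (mm10, chr6:57581000-57664632, plus strand) encodes the main ISG15 ligase of the mouse. It was 342 normalized reads in 5N, 320.2 in 6L, 322 in 6R and 335 in 10N with agonistic CD40 mAb. With isotype control it was 237 in 5L, 226 in 7N, 201 in 8N and 242 in 9L. It varied least of the 7 genes within the agonistic CD40 mAb group, and all 4 of these libraries lay above all 4 isotype control libraries. The means were 329.8 ± 10.2 and 227 ± 18.2 (SD, n = 4 each), a ratio of 1.45 and a log2 difference of 0.54 (standard error 0.12). Removing any single library gave log2 differences of 0.49 to 0.58. Its exons share 13.7% of their bases with Gm45193 on the same strand, and reads from there cannot be assigned to either gene by position alone.

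Usp18 (mm10, chr6:121245906-121270917, plus strand) encodes the ISG15 protease. It was 134 normalized reads in 5N, 185 in 6L, 155 in 6R and 167 in 10N with agonistic CD40 mAb. With isotype control it was 78.2 in 5L, 88.0 in 7N, 157 in 8N and 128 in 9L. The isotype control library 8N stood above 6R and 5N, and 5L and 7N were low, so the groups overlapped. The means were 160.0 ± 21.4 and 113 ± 36.3 (SD, n = 4 each), a ratio of 1.42 and a log2 difference of 0.55 (standard error 0.23). The log2 difference was 0.39 without 5L, 0.72 without 8N and 0.17 without both 5L and 7N. A long noncoding RNA on the opposite strand, Gm44148, overlaps 4.44% of its exon bases, and an unstranded library cannot separate the reads of the pair.

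By the limits used over the whole table (means 1.5-fold apart or more and an unadjusted limma p of at most 0.05), 2 of the 7 genes, Ubd and Uba7, fell among the higher genes and none among the lower. This describes where the chosen genes lie and is no test of them. Among all 12969 genes tested, 1.28% were past it as higher and 0.239% as lower. For Ubd and Herc6, again 2 of the 7, every agonistic CD40 mAb library lay above every isotype control library, as it did for 1.09% of all genes tested. Since the contrast entered the choice of the genes, nothing is read from these shares.

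The libraries did not rank alike for all members. Library 5N was the lowest of the agonistic CD40 mAb group for 5 genes, namely Ubd, Isg15, Uba7, Ube2l6 and Usp18, and the highest for Uba6 and Herc6. Library 5L was the lowest of all 8 for 6 genes, Herc6 being the exception. Isg15, Uba7 and Usp18 moved together within the groups. Over the 8 libraries, with each group's mean subtracted, Pearson r was 0.96 between Uba7 and Usp18, 0.94 between Isg15 and Uba7 and 0.90 between Isg15 and Usp18. Ubd shared part of this pattern, with r of 0.77 to Uba7, 0.77 to Usp18, 0.74 to Isg15 and 0.69 to Ube2l6. Herc6 went the other way, at r between -0.60 and -0.39 with Usp18, Ubd, Uba7, Isg15 and Ube2l6, and its deviations were small. These are descriptions over 8 points that share depth within a library. The lowest Uba7, Isg15 and Usp18 values belonged to 5L, which also had the fewest reads, and the part of depth was not tested.

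**Figure D2:**
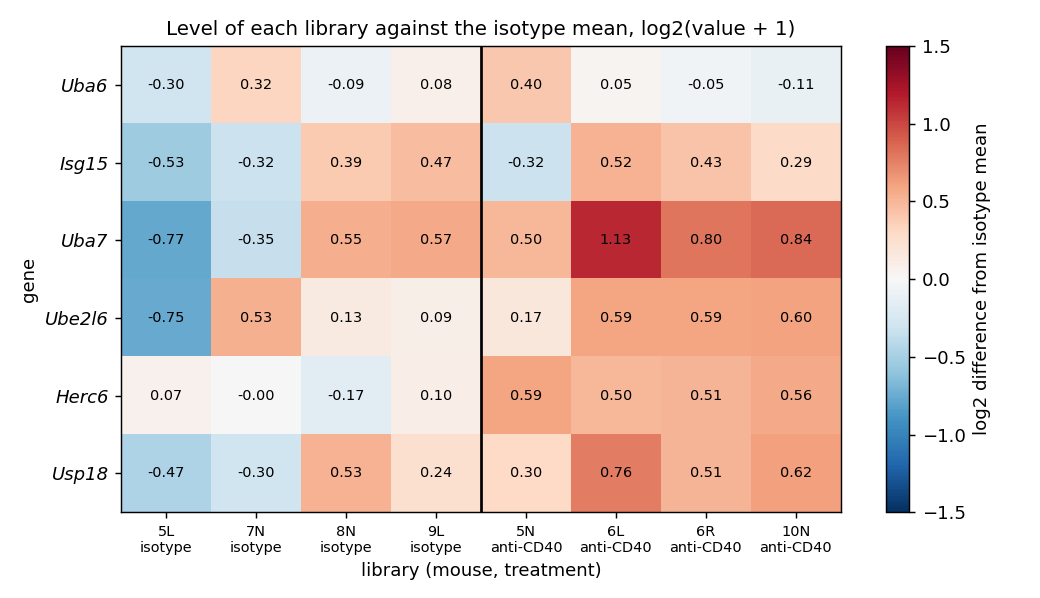
Difference of each library from the isotype control mean on the log2(value + 1) scale, for the 6 genes other than Ubd. Columns are libraries with their treatment, red is above and blue is below the isotype control mean. Isg15 is below that mean in 5L, 7N and 5N, whereas Herc6 is above it in all 4 agonistic CD40 mAb libraries by 0.50 to 0.59.

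Levels were compared between genes per kilobase of transcript. Ubd and Isg15 each have a single annotated transcript, of 931 and 756 bases. With agonistic CD40 mAb, Ubd stood at 442 ± 214 and Isg15 at 327 ± 77.0 normalized reads per kilobase (SD, n = 4 each). With isotype control, they stood at 18.8 ± 15.6 and 284 ± 95.9. The level of Ubd was thus below that of Isg15 in every isotype control library, where the ratio of Ubd to Isg15 per kilobase was 0.0140 in 5L, 0.0588 in 7N, 0.111 in 8N and 0.0544 in 9L. It was 1.20 in 5N, 0.680 in 6L, 1.87 in 6R and 1.67 in 10N, so Ubd was the higher of the modifiers in each agonistic CD40 mAb library but 6L.

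By the median length of each gene's annotated transcripts, the order with isotype control was Ube2l6, Isg15, Herc6, Usp18, Uba7, Uba6 and Ubd, from 368 to 18.8 normalized reads per kilobase. With agonistic CD40 mAb it was Ube2l6, Ubd, Herc6, Isg15, Usp18, Uba7 and Uba6, from 496 to 79.0. The ranges of neighbours in both orders overlapped, except that Uba7 was above Uba6 with agonistic CD40 mAb and Uba6 above Ubd with isotype control. Within a library, Uba7 was above Uba6 in all 4 isotype control libraries as well, at ratios of 1.15 to 2.83, and Isg15 above Usp18 in all 4 agonistic CD40 mAb libraries, at ratios of 1.03 to 1.51. The other neighbours changed places in at least 1 library. The enzymes have several transcripts, and by their longest one only 2 of the 7 genes kept their place in each group. Ubd was last with isotype control and Uba6 last with agonistic CD40 mAb by either length.

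**Figure D3:**
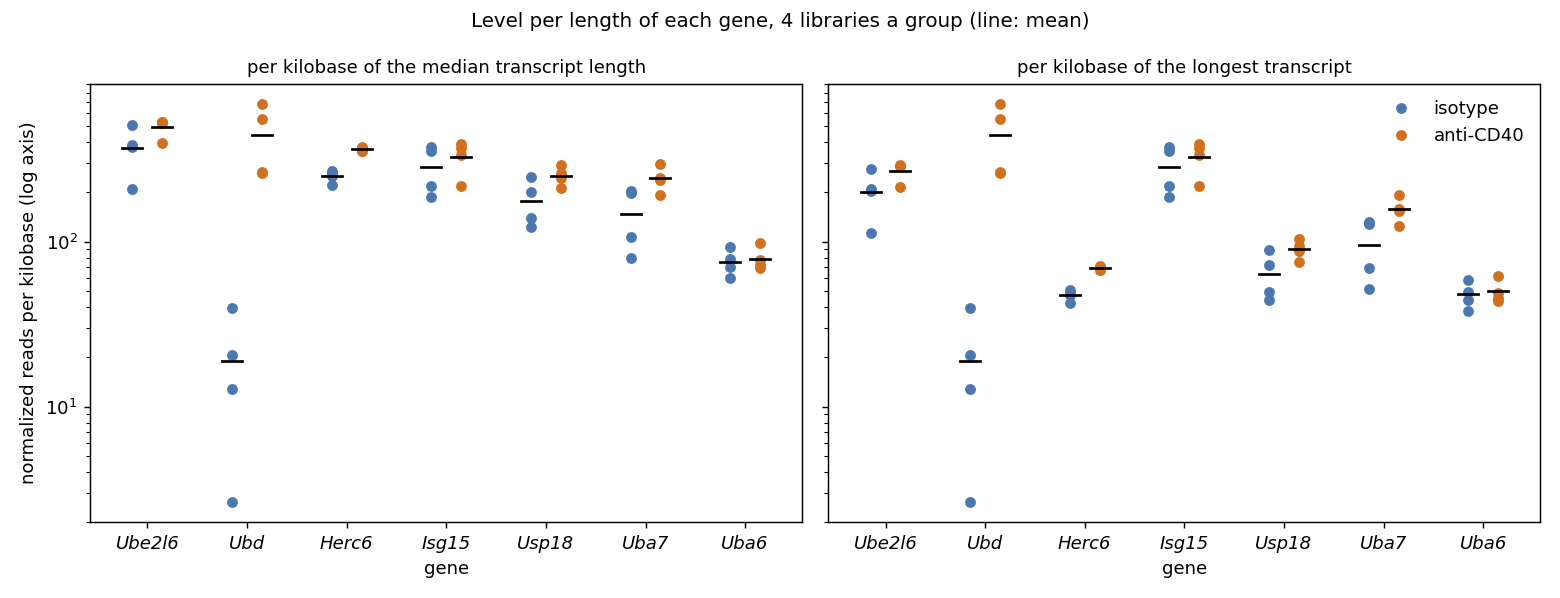
Normalized reads per kilobase on a log axis for the 7 genes, by the median transcript length at left and by the longest transcript at right, with isotype control in blue and agonistic CD40 mAb in orange. Points are libraries and lines are means of 4. Ubd moves from the lowest place, at 18.8, to among the highest, at 442, and the places of the enzymes depend on the length used.

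The genes whose pattern was most like that of Ubd over the 8 libraries, by Pearson r of log2(value + 1) among all 12969 tested genes, were Ciita (0.985), Igtp (0.984), Tgtp1 (0.984), Irgm2 (0.978) and Tgtp2 (0.976). Ciita encodes the master coactivator of MHC class II genes, and the other four are immunity-related GTPases. With the group means subtracted, r was 0.926 to 0.982, over the same libraries that chose these genes. The deviations of Ubd are led by isotype control libraries of few Ubd reads, 5L with 1 and 8N with 27. The genes most like Isg15 were Rps19 (0.986), Dhx58 (0.985), Nckap5 (0.967), Tmem63a (0.963) and Fance (0.962). Dhx58 encodes LGP2, a cytoplasmic RNA sensor, and Rps19 a ribosomal protein.

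The proteins that handle FAT10 and ISG15 downstream were not among the members, and their genes were tested. These and the other related lists were also chosen with earlier results of these data known, which limits what their p-values and counts can show. Of 6 FAT10 partners (Ube2z, Nub1, Sqstm1, Hdac6, Vcp and Psmd4), none was past the threshold or at an unadjusted p of at most 0.05 in limma, edgeR or DESeq2. Their median log2 difference was 0.02, or 0.08 without 5L, beside 0.00 over all genes tested. Ube2z, the E2 of FAT10, was 1250.1 ± 35.1 and 1247 ± 99.2 normalized reads (SD, n = 4 each), with a log2 difference of 0.01 (95% interval -0.22 to 0.23, limma adjusted p = 1.00). Nub1 was 561 ± 49.4 and 486 ± 47.9, with a log2 difference of 0.21 (95% interval -0.06 to 0.48, limma unadjusted p = 0.118). Psmd4, the proteasome subunit that binds FAT10, had the next lowest p, at a log2 difference of -0.12 (standard error 0.13, limma unadjusted p = 0.357), and Hdac6, which carries FAT10 conjugates to aggresomes, stood at 0.05 (standard error 0.16). All 32 tested genes of the 26S proteasome were short of the threshold, as they were in edgeR and DESeq2, with none at an unadjusted p of at most 0.05. Their median log2 difference was -0.03, with 8 of 32 above 0, beside 51.3% of all genes tested. Without 5L the median was -0.0007 and 16 of 32 were above 0, beside 47.9% of all genes. Psma4 had the lowest p of the 32 (log2 difference -0.15, limma unadjusted p = 0.213), followed by Psmd14 (-0.11, limma unadjusted p = 0.321).

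Of 7 ISG15 partners, none was past the threshold, and Stat2 alone was at an unadjusted p of at most 0.05 in limma, edgeR and DESeq2. Stat2, which tethers USP18 to IFNAR2, had means of 867 ± 104 and 623 ± 170 (SD, n = 4 each), in a ratio of 1.39 (limma unadjusted p = 0.0279, adjusted p = 1.00). Its log2 difference of 0.52 was 0.30 without 5L, at a ratio of 1.24, and its limma unadjusted p was 0.0668 without 6L and 0.0694 without 10N. Without both 5L and 7N, the log2 difference of Stat2 was 0.21, at a ratio of 1.16 (limma unadjusted p = 0.147). Arih1, a ligase that also works with ISG15, had a log2 difference of -0.03 (95% interval -0.26 to 0.19). Trim25, an ISG15 ligase and substrate, was at 0.18 (95% interval -0.14 to 0.50). Itgal, which with Itgb2 forms LFA-1, a receptor of free ISG15, was at -0.80 (standard error 0.50, limma unadjusted p = 0.139) at means of 11.2 and 22.1 normalized reads.

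Relatives of the members also stayed short of the threshold in limma, edgeR and DESeq2, with none at an unadjusted p of at most 0.05. This held for 5 ubiquitin proteases that also react with ISG15, 12 other modifiers, 8 other E1 genes and 4 other HERC genes. The lowest p of each list belonged to Usp14 (log2 difference -0.11, limma unadjusted p = 0.405), Nedd8 (-0.11, limma unadjusted p = 0.417), Atg7 (0.18, limma unadjusted p = 0.306) and Herc4 (0.08, limma unadjusted p = 0.599). Nedd8 encodes a modifier of cullins and Atg7 the E1 of autophagy. Rps27a and Ufm1, which encode a ubiquitin fusion and the modifier UFM1, were at -0.12 and -0.11. Usp5 and Usp21 were at -0.06 and 0.03, Sae1 and Nae1, which encode E1 subunits for SUMO and NEDD8, at 0.11 and 0.08, and Herc3 and Herc2 at -0.11 and 0.03. The intervals of these genes are wide enough to hold modest changes, so they are not shown to be equal.

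Of 14 receptors and factors of interferon signaling, 4 were past the threshold as higher (limma), 4 were also past it in edgeR and in DESeq2, and none was lower. The share of all genes past it as higher was 1.28%, and this list's median log2 difference was 0.18, with 12 of 14 above 0, as were 51.3% of all genes tested. This rests in part on library 5L, without which the median was 0.04 and 8 of 14 were above 0, beside 47.9% of all genes. The median was 0.11 without 6L and 0.27 without 9L, and with library quality weights it was 0.09 with 9 of 14 above 0. Irf1, an IFNγ-induced transcription factor, was 784 normalized reads in 5N, 941 in 6L, 1082 in 6R and 1330 in 10N, and 305 in 5L, 454 in 7N, 709 in 8N and 613 in 9L. It rose 1.99-fold without overlap (log2 difference 1.03, standard error 0.25, limma unadjusted p = 0.00188, adjusted p = 0.460). Irf8, at means of 562 ± 131 and 331 ± 69.1 (SD, n = 4 each), rose 1.70-fold without overlap (limma unadjusted p = 0.00303, adjusted p = 0.599). Irf1 and Irf8 passed whichever library was left out. Adjusted p over the alternatives ran from 0.0218 to 1.00 for Irf1 and from 0.0877 to 1.00 for Irf8, with DESeq2 the lowest each time.

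Irf7, the factor that amplifies type I interferon, and Socs1, an inhibitor of JAK kinases, were past the threshold on less even values. Irf7 was 277 in 5N, 732 in 6L, 452 in 6R and 454 in 10N, and 183 in 5L, 195 in 7N, 399 in 8N and 337 in 9L, so 5N stood below 8N and 9L. Its ratio was 1.72 (limma unadjusted p = 0.0327, adjusted p = 1.00). Socs1 had means of 23.7 ± 15.0 and 8.35 ± 5.58 normalized reads (SD, n = 4 each), a ratio of 2.84 (limma unadjusted p = 0.0318, adjusted p = 1.00), and only 1 read in 5L and 2 reads in 7N. Both passed in 3 of the 8 fits with a single library removed and did not pass without 6L, 6R, 10N, 5L or 7N. Irf7 did not pass in limma without the trend (limma unadjusted p = 0.0542) or with library quality weights (limma unadjusted p = 0.116), nor did Socs1 with those weights (limma unadjusted p = 0.0651). Without both 5L and 7N, the ratio was 1.56 for Irf1, which still passed, and 1.44 for Irf8, 1.30 for Irf7 and 1.81 for Socs1, which did not.

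All 9 tested genes of TNF and NF-κB signaling had a log2 difference above 0, beside 51.3% of all genes tested, with a median of 0.28. Yet none of the 9 was past the threshold or at an unadjusted p of at most 0.05 in limma, edgeR or DESeq2. Without 5L the median was 0.05 and 7 of 9 were above 0, and with library quality weights it was 0.11 and 6 of 9. Tnfrsf1b, which encodes TNF receptor 2, was at 0.34 (standard error 0.19, limma unadjusted p = 0.0915), Tnf at 1.23 (standard error 0.68, limma unadjusted p = 0.10) and Relb at 0.32 (standard error 0.20, limma unadjusted p = 0.138). Tnf had few reads, at means of 20.5 ± 6.78 and 11.5 ± 10.3 normalized reads (SD, n = 4 each). Counting each gene once, 94 genes of the related lists were tested, and the 4 interferon factors were the only ones past the threshold in limma.

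**Figure D4:**
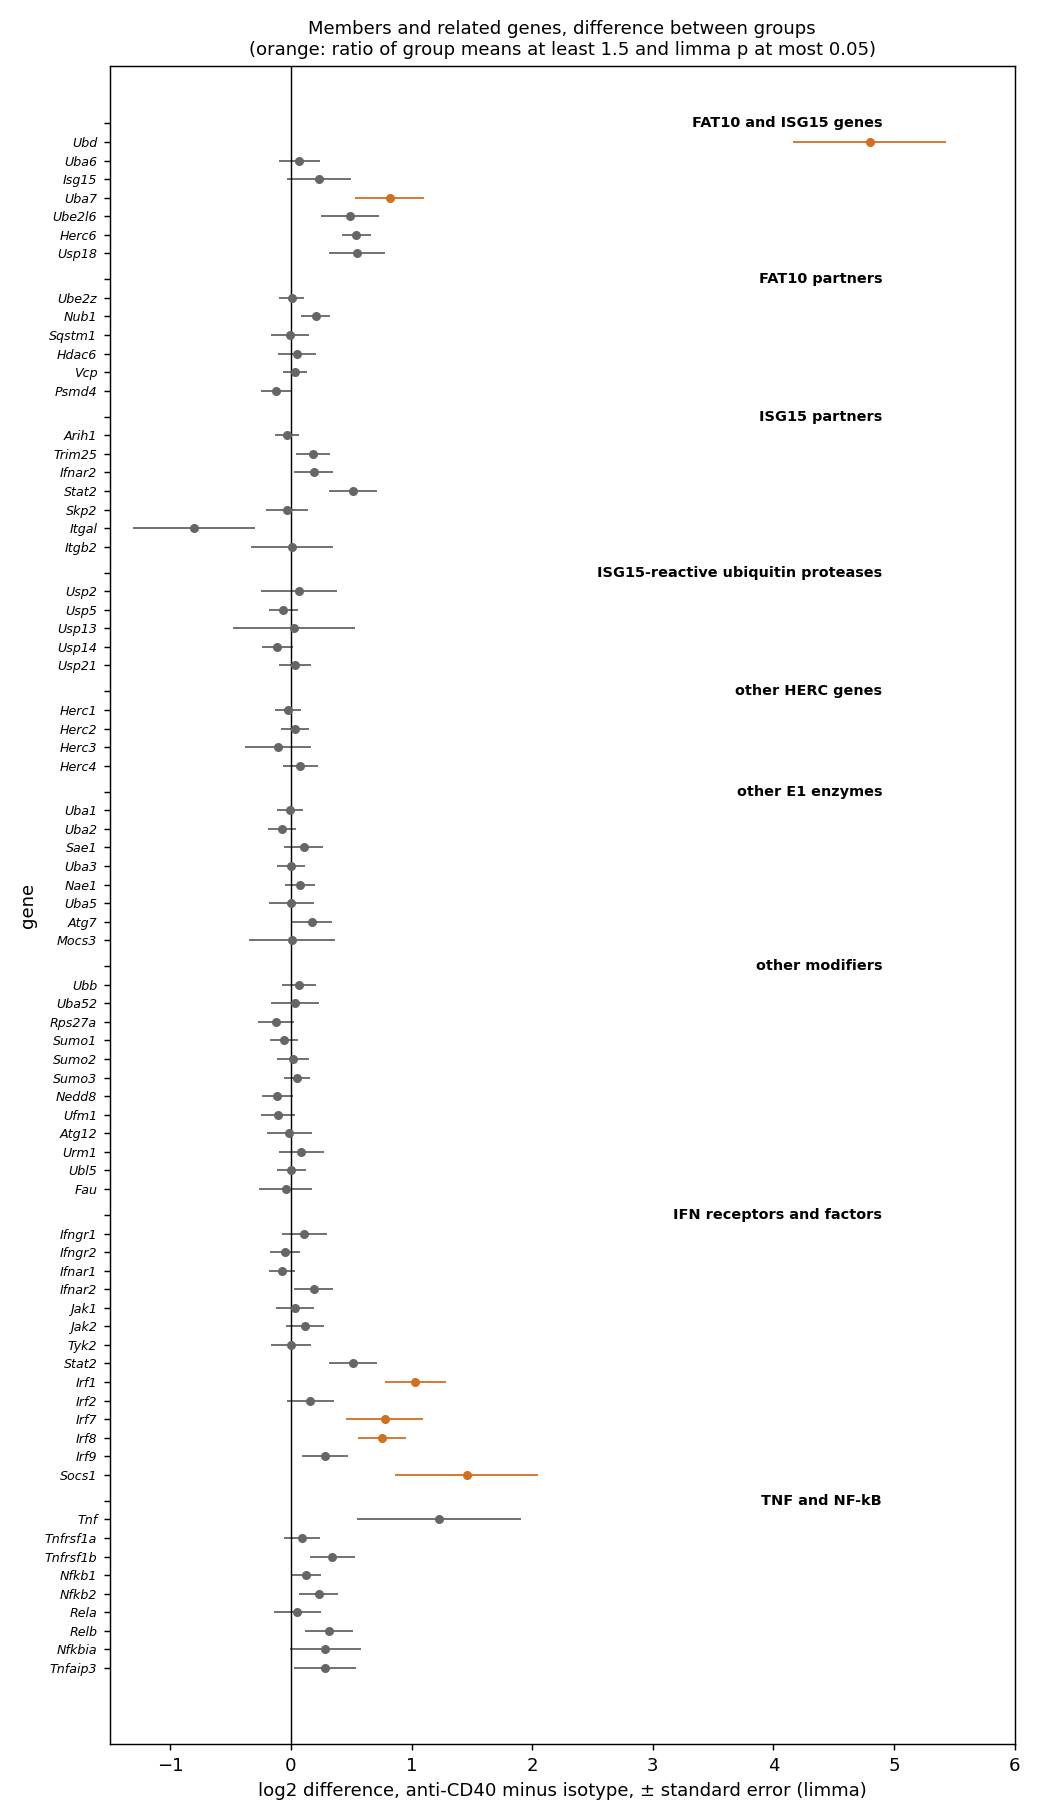
Log2 difference, agonistic CD40 mAb minus isotype control, with its standard error from limma, for the 7 members and the related lists other than the 26S proteasome. Orange marks genes past the threshold (means 1.5-fold apart or more, limma p at most 0.05). Ubd lies at 4.80, apart from all other genes shown, and the orange related genes are Irf1, Irf7, Irf8 and Socs1.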

How the data were processed

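The authors aligned reads to mm10 with TopHat2 after base calling with CASAVA 1.8, using Bowtie2 2.2.1, and counted them per gene in Partek Genomics Suite 6.6. They deposited a normalized signal for each gene and library, gene counts divided by DESeq2 size factors. Of these values, 99.9% lay within 0.1 read of a whole multiple of 1 read, so flooring or a correction for harvest day, which the study's methods describe, was not visible in them. The kit does not mark strand. The deepest library held 21.9 times the reads of the shallowest. Reads carried no molecular identifiers, so limits from reads cover counting error only. Each library came from its own tumor.

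limma 3.58.1 (R 4.3.3) was fitted to log2(value + 1) of all 8 libraries, with a term for treatment alone and a variance trend, for the 12969 genes whose higher group mean exceeded 10. Benjamini-Hochberg adjustment ran over all of these. Harvest day, which the labels do not vary, had no term in the fit, and its part in the differences was not tested. For genes of low value a log2 difference on this scale depends on the value added. For Ubd it was 4.95 with 0.1 added in place of 1 and 3.97 with 10. It compares means of logs and need not match the ratio of means. For Ubd, at 4.80, edgeR gave 4.40 and DESeq2 4.51. The threshold was a 1.5-fold or larger ratio of the means in either direction and an unadjusted p of at most 0.05. The members and all lists were chosen with earlier results of these data known. Named were all members, for each related list the genes past the threshold or at an adjusted p under 0.05 and the 3 of lowest p, Ube2z, Nub1, Arih1 and Trim25, and the 5 genes most like Ubd and Isg15. Reads recovered from the signal steps were tested with edgeR 4.0.16 and DESeq2 1.42.0 as alternatives. Other alternatives were pseudocounts of 0.1 and 10, no limit on expression or a limit of 50, quantile normalization, recomputed size factors, limma without trend or with library quality weights, and leaving out each library. Leaving out 5L and 7N together and the general NF-κB consensus were added after the data had been seen. The limma script was tested on simulated data. Positions and transcript lengths are those of GENCODE M21 on mm10. Protein sequences were not used here. A few genes of the related lists are not reported here and were left out of the counts of these lists.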

Additional observations from a re-analysis of the deposited data

Results flagged for a closer look

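Ube2l6 in the agonistic CD40 mAb library 5N stood apart from its group. It was 335 normalized reads, the lowest of 4, while 6L, 6R and 10N lay between 448 and 452, so its gap to the nearest library was 0.96 of the group's range and exceeded Dixon's 95% critical value. Of the 14 groups tested, each of 7 genes under 2 treatments, 1 was singled out in this way, where chance gives about 1 in 20.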

How the results depend on the processing

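As a description over 19 alternatives, the log2 difference of Ubd lay between 3.77 and 5.29, and those of Uba7, Ube2l6, Herc6 and Usp18 stayed above 0. Those of Isg15 and Uba6 were above 0 in 17, and Isg15 was at -0.02 with library quality weights. Without both 5L and 7N, the log2 differences of Uba7 and Usp18 were 0.26 and 0.17, 1 member and 1 related gene were past the threshold as higher, and over all genes 137 were past it as higher and 56 as lower. Removing single libraries left 1 to 3 members (1 without 5L) and 2 to 6 related genes (2 without 6L, 6R, 10N or 5L, and 6 without 9L) past it as higher, beside 124 to 234 of all genes (161 without 5L and 234 without 9L). With all libraries, 166 genes were higher and 31 lower. The number of lower genes was 27 to 123 with any single library removed, with 123 without 5L and 52 without 9L, 13 at a limit on expression of 50, 57 without the trend, 70 with quality weights, 47 with edgeR and 58 with DESeq2. Without a limit on expression, 331 genes were higher and 93 lower, as more genes were tested. By the longest transcript, 2 of the 7 members kept their place in the order by level per length in each group. The general NF-κB consensus, which allows more sequences, was found in 2779 promoters and the strict motif in 135. No direction reversed among called values, and no scaling moved the median of all genes by more than 0.1 on the log2 scale. No paired analysis was possible because the labels number no replicates and the mouse names of the groups share a single number, in 5N and 5L. Among the members, depth limits Ubd most, whose isotype control level rests on 121 reads, 88 of them from 9L. For the remaining members at least 774 reads stood behind each group.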
